A study of Mus musculus with 9 samples.

Results

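Classical monocyte identity genes are transcripts that are abundant in the Ly6C-high, classical monocytes of the mouse. A group of 10 of them was followed here through gut antibiotic treatment and lipid replacement: Ly6c2, Vcan, F13a1, Chil3, Fn1, Mgst1, Plac8, Hp, Thbs1 and Csf1r. They were chosen by gene symbol, and all 10 were found, each in 1 row, among the 46072 genes of the tables, of which 26108 were above 0 in at least 1 library. RNA was sequenced from splenic monocytes of female C57BL/6 mice. The Con group was given water by gavage for 6 days. The Van group was given 2 mg of the antibiotic vancomycin per mouse per day over the same 6 days, and VanLip mice received the same vancomycin and then L654, a lipid of gut bacteria that signals through TLR2, into the retro-orbital sinus on days 7, 9 and 11. After the gavage all animals were rested without antibiotic, for 6 to 8 days as the labels have it. The study narrows this for the RNA samples to the longest of these rests. Each group held 3 libraries, 9 in all. Per the methods of the study, monocytes were enriched with magnetic beads by removing cells that carry CD3e, CD45R, CD117, Ly-6G, NK1.1 or Siglec F, so classical and nonclassical monocytes were sequenced together. The study used PBS, the carrier of the lipid, as its control injection, but its account of the RNA groups names no injection for Con and Van. That account does refer to a timeline figure, the caption of which has PBS or L654 injected during the rest.

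Monocytes leave the bone marrow as Ly6C-high, CCR2-positive classical cells, which enter inflamed tissue and can become macrophages, or which convert in the blood and spleen to patrolling Ly6C-low nonclassical cells. The spleen also holds a reserve of classical monocytes. PU.1, C/EBP and IRF8 factors drive the classical programme, and NR4A1 the nonclassical one. The 10 genes fall into 3 roles: surface and cytoplasmic proteins of the cell itself (Ly6c2, Csf1r, Plac8, Mgst1), extracellular matrix and clotting proteins (Fn1, Thbs1, Vcan, F13a1), and secreted proteins of inflammation (Chil3, Hp).

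Ly6c2 encodes the GPI-anchored surface protein by which classical monocytes are sorted, and Ly6c1, its neighbour on chromosome 15, is nearly identical to it. The coding sequences of both genes have 393 bases, differ at 9 of them and are 97.7% identical. The longest run without a difference covers 188 bases, from base 66 to base 253. The first 100 coding bases, which hold 6 of the 9 differences, are shown because most of the coding differences between the genes lie there. The rest of the Ly6c2 transcript, of 822 bases in all, was not compared base by base. The last bases shown already belong to the identical run, and a read wholly within that run cannot be assigned without its mate. They are read from the GENCODE M21 transcripts on GRCm38, minus strand, across an exon junction, with capitals at the bases that differ between the genes.
Ly6c2: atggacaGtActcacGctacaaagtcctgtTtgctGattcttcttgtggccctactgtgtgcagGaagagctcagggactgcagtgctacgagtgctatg
Ly6c1: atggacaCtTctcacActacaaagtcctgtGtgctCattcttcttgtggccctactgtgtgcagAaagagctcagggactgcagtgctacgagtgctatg

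Of the 723 stretches of 100 bases in the Ly6c2 transcript, 114 (15.8%) also occur in Ly6c1, and of the 673 stretches of 150 bases 39 (5.79%) do. Chil3, which encodes the chitinase-like lectin Ym1, shares 78 of 1440 stretches of 100 bases (5.42%) with Chil4 and the pseudogene Gm6522. The other 8 genes shared no such stretch with a transcript of another gene.

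The 250 bases before the transcription start are shown for Ly6c2 and Vcan, which carried calls in the tests given further on, and for Chil3, the gene with the widest spread between mice in Con and in Van. They come from RefSeq (GRCm38.p6), where 6 of the 10 genes had an entry: Ly6c2, Vcan, F13a1, Chil3, Mgst1 and Plac8. Capitals mark matches, on either strand, to the PU.1 core GAGGAA and to the C/EBP core TTNNGNAA. The windows are chr15:75111972-75112221 for Ly6c2, chr13:89742513-89742762 for Vcan and chr3:106167565-106167814 for Chil3, all on the minus strand.
Ly6c2: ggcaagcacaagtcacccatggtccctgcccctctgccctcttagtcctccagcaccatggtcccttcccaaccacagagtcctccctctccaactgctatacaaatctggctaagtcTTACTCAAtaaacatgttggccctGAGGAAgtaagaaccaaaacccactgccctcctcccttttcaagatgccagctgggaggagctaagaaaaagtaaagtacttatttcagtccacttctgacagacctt
Vcan: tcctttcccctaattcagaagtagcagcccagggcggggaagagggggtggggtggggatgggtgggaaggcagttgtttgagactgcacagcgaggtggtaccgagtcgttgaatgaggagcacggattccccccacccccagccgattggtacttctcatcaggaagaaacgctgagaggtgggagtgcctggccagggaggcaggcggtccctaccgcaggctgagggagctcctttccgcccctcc
Chil3: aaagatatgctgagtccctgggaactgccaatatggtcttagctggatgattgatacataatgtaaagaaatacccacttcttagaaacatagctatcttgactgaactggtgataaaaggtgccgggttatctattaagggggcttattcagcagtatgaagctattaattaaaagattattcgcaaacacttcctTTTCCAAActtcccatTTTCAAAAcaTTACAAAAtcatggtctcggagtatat

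GAGGAA was present in 3 of the 6 windows (Ly6c2, F13a1 and Plac8) against 23.3% of all 32851 promoter windows of the same length. TTNNGNAA was present in 5 of the 6, all but Vcan, against 36.8% of all windows. The RefSeq starts behind the Mgst1 and Plac8 windows lie 211 and 40 bases inside the gene as GENCODE annotates it, so most of the Mgst1 window is within that gene. CACCC, the core bound by KLF factors, was present in 4 (Ly6c2, Vcan, Mgst1 and Plac8) against 52.0%, and TATAAA in 0 of the 6 against 12.4%. These matches describe the letters of the windows and are not evidence of binding.

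Each library of Con and Van held between 43070361 and 61383806 expected counts, and each library of VanLip between 170503470 and 184720704. The low count seen most often was 1.33 in all libraries of Con and Van but 2.00 in all of VanLip, the sizes that reads of 100 and 150 bases give under the assumptions of the counting software, whereas the labels state only reads of 100 bases. Longer reads in VanLip are thus inferred from the counts, and treatment, the size of 1 read and depth cannot be told apart in any VanLip contrast. The defining monocyte markers (8 of 8, among them Lyz2, Cd68, Itgam and Spi1) were above 0 in every library, with a summed level of 7613 to 10613 FPKM. FPKM scales fragments to transcript length and to the fragments of the library, so levels can be compared between genes. Neutrophil markers (9 genes) summed to 2.214 to 12.98 FPKM with Ly6g at 0 in all 9 libraries, T and NK cell markers (7 genes) to 1.235 to 2.706, B cell markers (6 genes) to 12.61 to 17.67, platelet markers (8 genes) to 6.248 to 28.14, and eosinophil and basophil markers (5 genes) to 0.8033 to 2.225. Red pulp macrophage markers (6 genes) summed to 924.8 to 1411 FPKM, plasmacytoid dendritic cell markers (5 genes) to 71.37 to 111.9 and conventional dendritic cell markers (6 genes) to 33.65 to 62.56. Erythroid transcripts moved with the groups, at 99.61 to 202.5 FPKM in Con, 342.6 to 771.5 in Van and 278.4 to 1162 in VanLip over 6 genes led by the alpha globins Hba-a2 and Hba-a1. Of these 6, 5 were called higher in Van against Con, each lost with the edgeR quasi-likelihood test and without at least 3 single libraries. In VanLip against Con 6 were called higher, each kept without any single library and with edgeR, and each lost with limma on log2 FPKM at either pseudocount (adjusted p from 0.0837 to 0.252).

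Some markers of other cell types differed between the groups as well. In each contrast the other members of their lists were not called. The summed FPKM of conventional dendritic cell markers was 41.10 to 62.56 in Con and 41.08 to 52.71 in Van. That of plasmacytoid dendritic cell markers was 71.37 to 82.76 in Con and 78.89 to 85.59 in Van, so the groups overlapped in both. The median log2 fold changes of these lists for Van against Con were -0.19 and -0.09. In Van against Con the conventional dendritic cell genes Clec9a (-1.12, DESeq2 adjusted p = 1.55e-05) and Xcr1 (-0.85, 0.00897), the plasmacytoid dendritic cell gene Siglech (-0.89, 0.0474) and the neutrophil gene Retnlg (-2.60, 0.0224) were lower, and the red pulp macrophage gene Vcam1 was higher (0.46, 0.0106). In VanLip against Van, Clec9a (0.67, 0.0164) and Siglech (0.85, 0.0299) were higher and Vcam1 was lower (-0.50, 0.00176). In VanLip against Con, Xcr1 (-0.73, 0.0182), Cd209a (-0.73, 0.028), which dendritic cells and monocytes share, and the neutrophil genes Ngp (-1.94, 0.0373) and Mmp9 (-1.61, 0.0188) were lower. Of the calls in this paragraph, that of Clec9a in Van against Con and that of Vcam1 in VanLip against Van were kept with edgeR and without any single library, the others were lost with edgeR, and every one was lost in each limma fit on log2 FPKM that held the gene. The part of these cells in the results was not tested.

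In splenic monocytes of water-gavaged mice the 10 genes spanned a wide range of levels. Plac8, a small cysteine-rich cytoplasmic protein of myeloid cells, was the most abundant, at 1153 ± 83.57 FPKM in Con (SD, n = 3), rank 29 among all genes. Csf1r, the receptor for the growth factors CSF1 and IL-34 on which monocytes depend, followed at 564.0 ± 31.97, and Ly6c2 at 396.2 ± 18.36. The matrix glycoproteins fibronectin (Fn1, 313.9 ± 32.59) and thrombospondin 1 (Thbs1, 278.5 ± 63.65) and the lectin Chil3 (262.9 ± 90.14) came next, and their Con libraries overlapped, so the order of these 3 is not beyond the spread between mice. Haptoglobin (Hp), which binds free haemoglobin, stood at 159.9 ± 11.49 and overlapped Chil3. The detoxifying membrane enzyme Mgst1 (129.4 ± 2.445) and F13a1, the catalytic subunit of clotting factor XIII (119.6 ± 32.65), overlapped each other, and Mgst1 lay below all Con libraries of Hp. Vcan, the large matrix proteoglycan versican, was far lower than the rest, at 4.222 ± 1.406 FPKM and rank 8250.

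**Figure D1:**
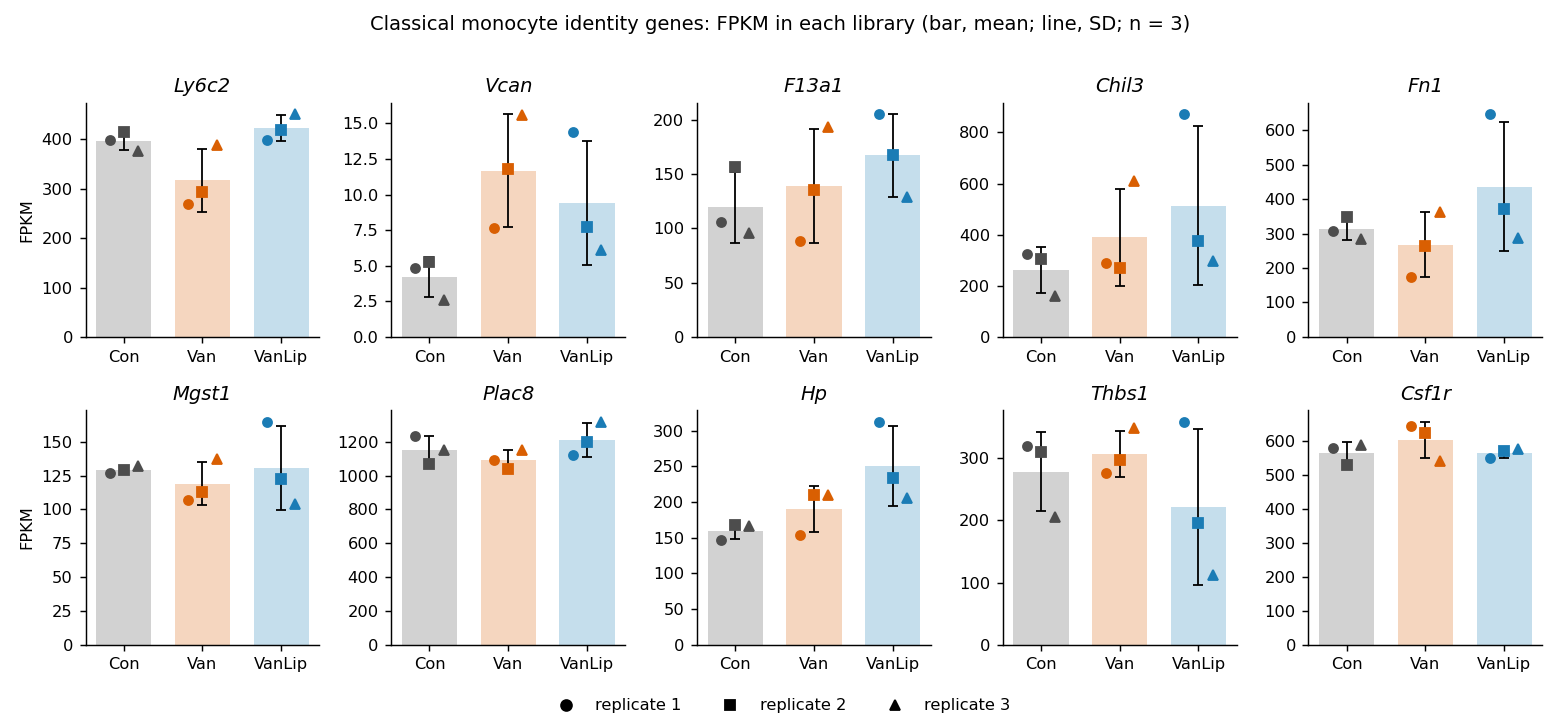
Level in FPKM (linear axis from 0, a scale of its own per gene) of the 10 genes in each of the 9 libraries. Bars are group means, lines are the SD (n = 3) and the point shape gives the replicate number. Vcan is higher in each Van library (7.677 to 15.61) than in any Con library (2.616 to 5.234), Ly6c2 is lower in each Van library (268.4 to 387.9) than in any VanLip library (399.2 to 451.1), and Csf1r and Plac8 hardly vary.

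The first question was which of these genes differed after vancomycin alone. Vcan rose, and it was the 1 gene of the 10 that passed the test for Van against Con (the Wald test of DESeq2, Benjamini-Hochberg adjusted over all genes, called at 0.05 or under), where 4.34% of all 18516 genes tested were called. Vcan measured 4.816, 5.234 and 2.616 FPKM in the Con libraries, 7.677, 11.77 and 15.61 in the Van libraries, and 14.36, 7.698 and 6.125 in the VanLip libraries. Every Van and every VanLip library was thus above every Con library, while Van and VanLip overlapped. The log2 fold change was 1.54 with a standard error of 0.42 for Van against Con, 2.9-fold, with a DESeq2 adjusted p of 0.0122. Against Con, VanLip gave 1.13 with the same standard error (adjusted p = 0.0884), and against Van it gave -0.41 (95% interval -1.24 to 0.42, adjusted p = 0.667). In a bulk sample, fewer cells of a type and less RNA per cell cannot be told apart. Vcan (ENSMUSG00000021614, chromosome 13, 89655312 to 89742509, minus strand, GRCm38) overlaps the antisense gene Gm4117 and the pseudogene Gm16318, and whether counting used strand is not given in the sources used here. Vcan was no longer called without replicate 1 of Con (1.64, adjusted p = 0.0501), replicate 3 of Con (1.32, 0.111), replicate 2 of Van (1.52, 0.1) or replicate 3 of Van (1.30, 0.139), and with limma on log2 FPKM (adjusted p = 0.133 to 0.282).

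Ly6c2 had its lowest levels in Van. They were 397.6, 413.9 and 377.2 FPKM in Con, 268.4, 293.5 and 387.9 in Van, and 399.2, 419.1 and 451.1 in VanLip. Van replicates 1 and 2 were below every other library, Van replicate 3 lay inside the Con range, and all VanLip libraries were above all Van libraries. Ly6c2 was higher in VanLip than in Van by a log2 value of 0.39 (standard error 0.13, 1.31-fold, DESeq2 adjusted p = 0.0262), and was the 1 gene of the 10 called for VanLip against Van, where 9.86% of all 18025 genes tested were called. The Van against Con difference was -0.34 with a standard error of 0.13 and did not pass (adjusted p = 0.11). Without Van replicate 3 it was -0.52 with an adjusted p of 1.68e-07. VanLip against Con gave 0.05, with a 95% interval of -0.20 to 0.30. The VanLip against Van call was lost with the edgeR quasi-likelihood test (0.42, adjusted p = 0.0886), with limma on log2 FPKM (0.43, 0.0754 to 0.173), in a fit of only those groups (0.39, 0.0521), and without Van replicate 1 (0.30, 0.171), Van replicate 2 (0.32, 0.183), VanLip replicate 2 (0.40, 0.062) or VanLip replicate 3 (0.35, 0.0897).

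Because reads of Ly6c2 (ENSMUSG00000022584, chromosome 15, 75108158 to 75111970, minus strand) and Ly6c1 can be exchanged, the genes were also read together. The sum of both was 437.6, 456.2 and 419.5 FPKM in Con, 295.3, 326.7 and 427.2 in Van, and 435.6, 448.9 and 478.2 in VanLip. The sum is mostly Ly6c2, so its pattern was bound to follow that gene and is no check on exchanged reads. In the sum each VanLip library was above each Van library. Ly6c1 alone had another order. It measured 39.94, 42.38 and 42.26 FPKM in Con, 26.88, 33.20 and 39.25 in Van, and 36.38, 29.80 and 27.07 in VanLip. It fell in VanLip against Con by 0.59 on the log2 scale (standard error 0.13, DESeq2 adjusted p = 0.000533), while its difference for VanLip against Van was -0.28 (adjusted p = 0.201). The Ly6c1 call was lost with limma (adjusted p from 0.129 to 0.254). If the VanLip reads are longer, as inferred from the counts, they share fewer stretches between these genes than reads of 100 bases, and the part of this in the values was not tested.

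Hp rose in VanLip. It measured 146.6, 167.0 and 166.0 FPKM in Con, 153.0, 209.1 and 209.0 in Van, and 312.6, 233.0 and 204.8 in VanLip. Every VanLip library was above every Con library, and Van lay across both ranges. The log2 fold change for VanLip against Con was 0.63 with a standard error of 0.16 (1.55-fold, DESeq2 adjusted p = 0.00299), and Hp was the 1 gene of the 10 called in this contrast, against 6.67% of all 16552 genes tested. Van against Con gave 0.24 (adjusted p = 0.533) and VanLip against Van 0.39 (adjusted p = 0.1), each with a standard error of 0.16. Hp (ENSMUSG00000031722, chromosome 8, 109575128 to 109579172, minus strand) remained called without any single library, with log2 values from 0.43 without VanLip replicate 1 to 0.76. It was not called with edgeR (0.65, adjusted p = 0.06) or limma on log2 FPKM (0.57, 0.124 to 0.252).

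**Figure D2:**
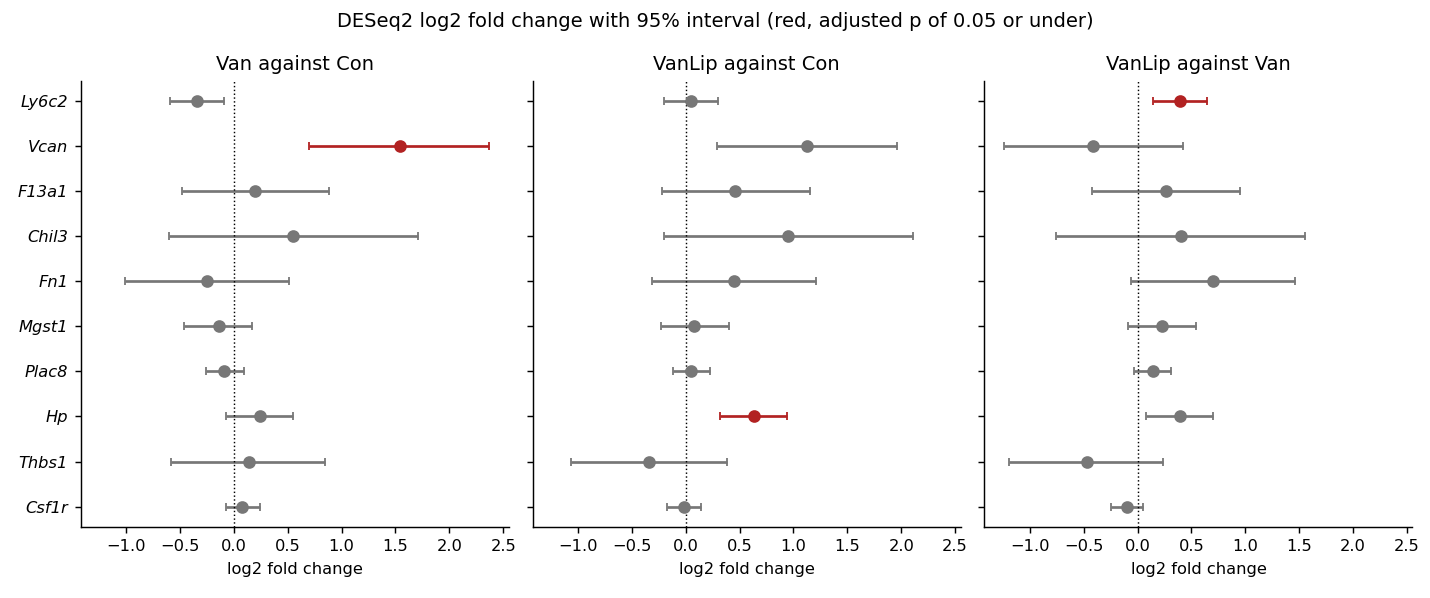
DESeq2 log2 fold change (x axis, points) of each of the 10 genes with its 95% interval (lines) in the 3 contrasts. Red marks an adjusted p of 0.05 or under: Vcan for Van against Con (1.54), Hp for VanLip against Con (0.63) and Ly6c2 for VanLip against Van (0.39). The intervals are widest for Chil3 (-0.60 to 1.71 for Van against Con) and narrowest for Csf1r (-0.07 to 0.24).

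None of the other extracellular proteins passed the test in any contrast. Fn1, which lays down provisional matrix and is bound by integrins, measured 308.6, 348.8 and 284.2 FPKM in Con, 174.6, 263.3 and 363.2 in Van, and 646.8, 372.5 and 288.1 in VanLip. The highest and the lowest library of Fn1 were VanLip replicate 1 and Van replicate 1, and all 3 groups overlapped. On the log2 scale Fn1 differed by -0.25 between Van and Con, by 0.45 between VanLip and Con and by 0.70 between VanLip and Van, each with a standard error of 0.39 (DESeq2 adjusted p from 0.291 to 0.888). Without VanLip replicate 1 the values of Fn1 for VanLip were 0.05 against Con and 0.30 against Van, and without Van replicate 3 the latter was 1.00. Thbs1, a ligand of CD36 and CD47 and an activator of latent TGF-beta, measured 319.9, 310.3 and 205.2 FPKM in Con, 276.3, 298.2 and 348.5 in Van, and 359.5, 195.6 and 111.5 in VanLip. VanLip thus held both its highest and its lowest libraries. Thbs1 gave 0.14, -0.34 and -0.47 in the same order, each with a standard error of 0.37, and an adjusted p from 0.515 to 0.95. Without VanLip replicate 1 the VanLip against Van value of Thbs1 was -1.02, with an adjusted p of 0.0203.

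F13a1 cross-links fibrin and fibronectin. Its levels were 105.9, 156.8 and 95.97 FPKM in Con, 88.43, 134.8 and 193.3 in Van, and 205.2, 167.2 and 129.2 in VanLip. The groups overlapped, with log2 fold changes of 0.20, 0.46 and 0.26, a standard error of 0.35 and adjusted p from 0.522 to 0.904. Chil3 measured 325.9, 303.1 and 159.6 FPKM in Con, 291.1, 269.5 and 609.4 in Van, and 872.3, 374.3 and 296.2 in VanLip. A single library stood far above its group in both Van and VanLip. The log2 fold changes of Chil3 were 0.55, 0.95 and 0.40 with a standard error of 0.59, and adjusted p ran from 0.4 to 0.796. Without VanLip replicate 1 those for VanLip were 0.32 against Con and -0.24 against Van, and without Van replicate 3 that for Van against Con was 0.07. Fn1 (chromosome 1, 71585520 to 71653200), F13a1 (chromosome 13, 36867178 to 37050244) and Thbs1 (chromosome 2, 118111876 to 118127133) each overlap a gene on the opposite strand.

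Among the proteins of the cell itself, Csf1r and Plac8 had the narrowest intervals of all 10 genes. Csf1r measured 577.2, 527.6 and 587.4 FPKM in Con, 642.6, 623.1 and 540.7 in Van, and 548.3, 570.1 and 574.5 in VanLip, and the groups overlapped. Its log2 fold changes were 0.08 (95% interval -0.07 to 0.24), -0.02 (-0.17 to 0.14) and -0.10 (-0.25 to 0.05), so the data leave room only for small differences. Plac8 measured 1236, 1069 and 1153 FPKM in Con, 1091, 1039 and 1154 in Van, and 1121, 1199 and 1320 in VanLip. Its log2 fold changes were -0.09 (-0.26 to 0.09), 0.05 (-0.12 to 0.23) and 0.14 (-0.03 to 0.31). Mgst1 was close to level in Con, at 127.1, 129.1 and 132.0 FPKM, and spread wider at 107.1, 112.8 and 137.5 in Van and at 165.0, 122.8 and 104.3 in VanLip. Mgst1 gave -0.14 (-0.46 to 0.17), 0.08 (-0.23 to 0.40) and 0.23 (-0.09 to 0.54). DESeq2 adjusted p over these 3 genes and 3 contrasts was at least 0.38.

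As a group, the 10 genes did not move together. For Van against Con 6 had a positive and 4 a negative log2 fold change, with a median of 0.11 against -0.01 over all genes tested. For VanLip against Con the split was 8 and 2 (median 0.27 against 0.01), and for VanLip against Van 7 and 3 (median 0.25 against 0.01). Signs alone grouped the genes as follows, with no test: F13a1, Chil3 and Hp had positive values in all 3 contrasts, and Ly6c2, Fn1, Mgst1 and Plac8 were negative for Van against Con and positive in both VanLip contrasts. Thbs1 and Csf1r were positive for Van against Con and negative in both others, and Vcan was positive against Con in both and negative for VanLip against Van. These contrasts share libraries, so the sign groups are not independent.

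Vcan and Ly6c2 had opposite signs for Van against Con, Vcan at 1.54 with a call and Ly6c2 at -0.34 without one. At an unadjusted p under 0.05 each contrast held 2 of the 10 genes: Vcan and Ly6c2 for Van against Con, Vcan and Hp for VanLip against Con, and Ly6c2 and Hp for VanLip against Van. Of all genes tested, 14.9%, 18.6% and 21.0% were under that p in the 3 contrasts. The count for VanLip against Van moved with single libraries: it was 1 of 10 without Van replicate 1 (17.3% of all genes), 5 without Van replicate 3 (19.2%), and 4 without VanLip replicate 1 (19.2%) or VanLip replicate 3 (21.8%). For Van against Con it was 1 without Van replicate 2 (11.6% of all genes). In the other leave-one-out fits of Van against Con, and in all of VanLip against Con, it was 2 or 3 (12.1% to 20.3%). Libraries of the groups did not overlap, in normalized counts, for 1 gene in Van against Con (Vcan), 2 in VanLip against Con (Vcan and Hp) and 1 in VanLip against Van (Ly6c2), where 24.1%, 24.5% and 28.6% of all genes averaging 50 or more normalized counts did not overlap. The likelihood-ratio test of DESeq2 for any difference among the 3 groups called 3 of the 10, Hp (adjusted p = 0.00448), Vcan (0.0182) and Ly6c2 (0.0357), against 13.5% of all genes.

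The spread between mice of a group was wide and ran through several of these genes at once. In VanLip, Vcan, F13a1, Chil3, Fn1, Mgst1, Hp and Thbs1 were highest in replicate 1 and lowest in replicate 3, an order shown by 20.3% of all 7941 genes averaging 1000 or more normalized counts. Ly6c2, Plac8 and Csf1r had the reverse order, shown by 16.3% of all genes. In Van, replicate 3 was the highest library for 9 of the 10 genes, against 34.8% of all genes, and the lowest for Csf1r. In Con, replicate 3 was the lowest library for 7 of the 10, against 31.5% of all genes, and the highest for 0. The summed FPKM of 12 nonclassical monocyte genes, led by Nr4a1 and Ace, was lowest in Con replicate 2 (3329), Van replicate 3 (3172) and VanLip replicate 1 (3233). The part of the mix of monocyte subsets in this spread was not tested.

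The size of this spread differed from gene to gene. The highest normalized count of Chil3 was 2.09 times the lowest in Con, 2.32 times in Van and 2.99 times in VanLip. Thbs1 reached 3.28 times in VanLip, with 196088 normalized counts in replicate 1 and 59805 in replicate 3. Csf1r stayed at 1.10, 1.20 and 1.03 times, and the median over all 7941 genes was 1.12, 1.11 and 1.14. The summed FPKM of the 10 genes was 3550, 3431 and 3164 in Con, 3100, 3255 and 3959 in Van, and 4644, 3662 and 3486 in VanLip.

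**Figure D3:**
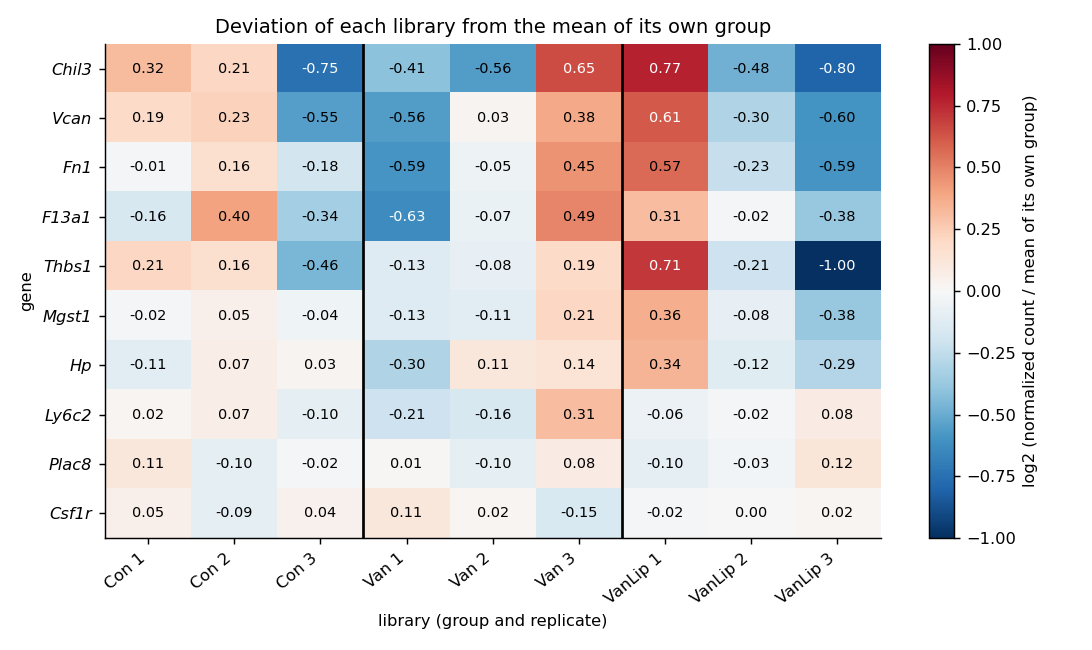
Deviation of each library (columns, by group and replicate) from the mean of its own group for each of the 10 genes (rows), as log2 of the normalized count over the group mean. Red is above and blue below the group mean. Chil3, Vcan, Fn1, F13a1 and Thbs1 deviate together, up in Van replicate 3 and VanLip replicate 1 and down in VanLip replicate 3, while Plac8 and Csf1r stay near 0.

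Pearson correlations of log2 normalized counts over the 9 libraries describe which genes shared these patterns. Among the 10, Fn1 went with Mgst1 (r = 0.907), F13a1 (0.83) and Hp (0.769), and Chil3 with F13a1 (0.808) and Vcan (0.767). Ly6c2 and Csf1r ran against each other (r = -0.845). Among 12206 other genes, those most like Fn1 were Cd300lg (r = 0.980), Cd177 (0.979) and Dusp22 (0.973). Those most like Chil3 were Cdadc1 (0.971), Lztfl1 (0.970) and Elmod2 (0.953), and among those most like Thbs1 were Fam129a (0.954) and Gm29233 (0.951), the latter of which lies across Thbs1 on the other strand. Those most like Ly6c2 were Recql (0.942), Marc2 (0.938) and Tns4 (0.936). Cd177 measured 34.02 FPKM in Van replicate 1 and 93.95 in VanLip replicate 1, the libraries where Fn1 was lowest and highest. These are descriptions over 9 libraries that share their groups, and the highest of 12206 values is high by selection.

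Other genes of classical monocytes were read beside the 10. Of 12 listed, Ccr2 and Ifitm6 passed the test for both Van contrasts and the other 10 passed neither. Ccr2, the chemokine receptor that takes classical monocytes out of the marrow, measured 173.4, 163.2 and 158.6 FPKM in Con, 70.36, 93.02 and 98.24 in Van, and 256.3, 156.1 and 190.3 in VanLip. Every Van library was below every Con and every VanLip library. Ccr2 fell by 0.83 on the log2 scale in Van against Con (standard error 0.18, DESeq2 adjusted p = 0.00048) and rose by 1.04 in VanLip against Van (adjusted p = 7.38e-07). Ifitm6, an interferon-induced membrane protein, measured 343.0, 353.0 and 360.5 FPKM in Con, 233.0, 246.3 and 236.0 in Van, and 466.7, 325.6 and 333.4 in VanLip. It fell by 0.57 in Van (adjusted p = 0.000792) and rose by 0.65 in VanLip against Van (2.48e-05). The drop of Ccr2 in Van was not called without Con replicate 1 (-0.81, 0.118), with the edgeR quasi-likelihood test (-0.83, 0.0561), with a replicate block (-0.83, 0.191) and with limma on log2 FPKM (-0.96 to -0.95, 0.0653 to 0.157). The Ifitm6 calls were lost with limma, for Van against Con in all 3 fits (0.0765 to 0.178) and for VanLip against Van in 2 of the 3 (0.0613 and 0.0697). The dendritic cell genes Clec9a and Siglech, given above, had the same signs as Ccr2 and Ifitm6 in both contrasts. Xcr1, Zbtb46 and Ccr9 shared these signs. Of the other dendritic cell markers listed, Cd209a, Clec10a and Tcf4 were negative in both contrasts, and Flt3, Bst2 and Klk1 were positive in both. The macrophage gene Vcam1 had the opposite signs to Ccr2 and Ifitm6. The part of these cells in the values was not tested.

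**Figure D4:**
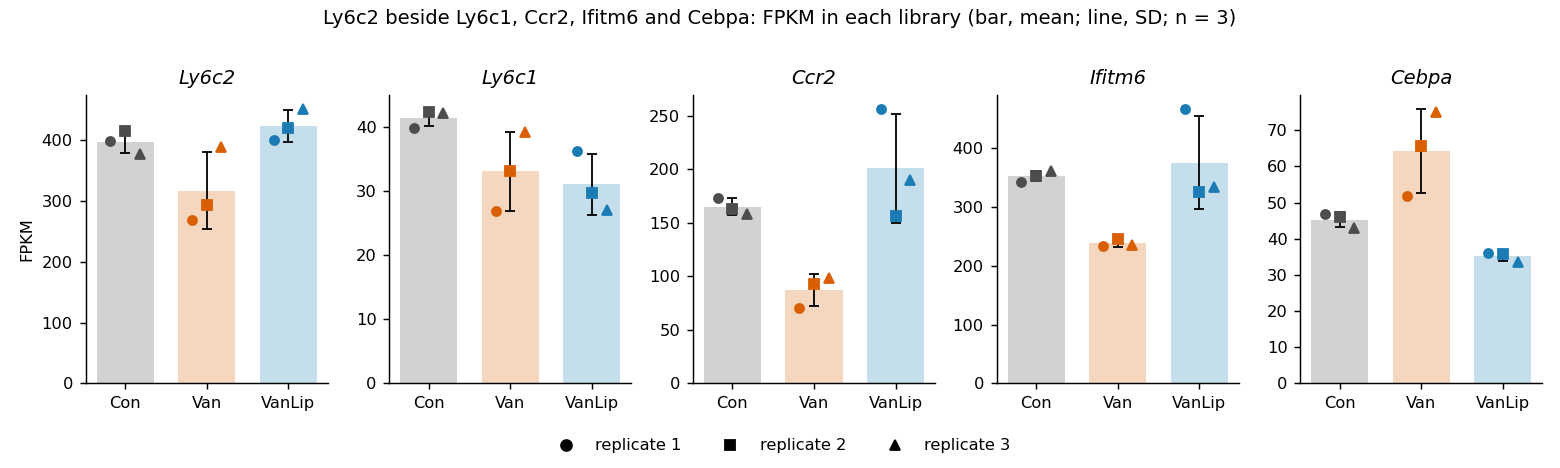
Level in FPKM (linear axis from 0, a scale of its own per gene) of Ly6c2, its near copy Ly6c1, the classical monocyte genes Ccr2 and Ifitm6 and the transcription factor gene Cebpa in each library. Bars are group means and lines the SD (n = 3). Ccr2 and Ifitm6 are lower in each Van library than in any other, and Cebpa is higher in each Van library (51.88 to 75.13) than in any other, while Ly6c1 is lower in each VanLip library (27.07 to 36.38) than in any Con library.

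For VanLip against Con only Ly6c1 of the 12 passed, downward, where 6.67% of all genes tested were called. The median log2 fold change of the 12 was -0.06 in Van against Con, then 0.03 and 0.18 in VanLip against Con and against Van. The most abundant of them, the lysozyme gene Lyz2, gave -0.11, 0.02 and 0.13 in the same order, none of which passed the test. Genes of nonclassical monocytes (12 listed) had a median of -0.04, 0.13 and 0.05. Ear2 fell in Van against Con (-0.35, DESeq2 adjusted p = 0.000689) and rose in VanLip against Van (0.48, 7.46e-08), together with Cx3cr1 (0.43, 0.00264), the fractalkine receptor, and Eno3 (0.60, 0.0247). Fabp4 rose in VanLip against Con (0.46, 0.0462). The summed level of the classical list over that of the nonclassical list was 2.91, 3.19 and 2.61 in Con, 1.99, 2.77 and 3.32 in Van, and 3.66, 2.41 and 2.80 in VanLip, so the groups overlapped in this ratio. Lyz2 (mean 7920 FPKM) makes up most of the first sum, and Nr4a1 (mean 1160 FPKM) leads the second. The ratio thus does not weigh the 12 genes of each list alike. The Ear2 call for Van against Con was lost with edgeR (-0.35, 0.0518) and limma (0.115 to 0.225), and that for VanLip against Van with 1 limma fit (0.0501). The Cx3cr1 call was lost with limma (0.0719 to 0.166). The Eno3 and Fabp4 calls were each lost without any of 5 single libraries, with edgeR (0.106 and 0.141) and with a replicate block (0.332 and 0.094).

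Among 9 transcription factors of the lineage, Cebpa, which encodes C/EBP alpha, moved in every contrast. It measured 46.94, 46.15 and 42.88 FPKM in Con, 51.88, 65.70 and 75.13 in Van, and 36.19, 35.93 and 33.53 in VanLip, with no overlap between any groups. Cebpa rose by 0.49 in Van against Con (DESeq2 adjusted p = 0.00325) and fell by 0.87 in VanLip against Van (8.45e-11) and by 0.38 in VanLip against Con (0.0289). The first of these calls was lost without Con replicate 3 (0.44, 0.0543), with edgeR (0.49, 0.0662) and with limma (0.151 to 0.297). The last was lost without any of 5 single libraries, with TMM library sizes (-0.36, 0.0503), edgeR (-0.36, 0.16), a replicate block (-0.38, 0.0613) and limma (0.123 to 0.24). Irf8, which directs progenitors to monocytes, rose in VanLip against Van (0.42, 0.000604) and Runx1 fell (-0.33, 0.000445), calls that were lost with limma in all 3 fits for Irf8 (0.0526 to 0.127) and in 2 for Runx1 (0.0727 and 0.0947). Spi1, the gene of PU.1, gave -0.01, 0.11 and 0.13 and did not pass.

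Classical monocytes also come in neutrophil-like and dendritic cell-like forms. Genes of the first form and of granulocyte-monocyte progenitors (10 listed, 9 with an adjusted p) were near absent, summing to 9.899 to 19.18 FPKM in Con, 11.03 to 22.79 in Van and 10.85 to 17.15 in VanLip, with Ms4a3 at 0 in all libraries. Of these, 1 passed the test, Saa3 for VanLip against Van (-1.55, DESeq2 adjusted p = 0.0183), and that call was lost without any of 4 single libraries, with edgeR (-1.52, 0.112) and with limma (0.107 to 0.268). The 7 genes listed for the dendritic cell-like form are mostly of MHC class II, which dendritic cells and macrophages express too. For VanLip against Con 6 of the 7 fell: Ciita (-1.06, 9.83e-06), the master regulator of MHC class II, H2-Aa (-0.87, 0.000166), Cd74 (-0.84, 0.0323), H2-Ab1 (-0.82, 0.000131), Cd209a (-0.73, 0.028) and H2-Eb1 (-0.68, 0.00411). Their sum was 4929, 3688 and 4110 FPKM in Con, 3914, 3020 and 3115 in Van, and 1632, 2736 and 2945 in VanLip. VanLip replicate 1, the lowest of the 9 in this sum, was the highest of the 9 for Chil3, Fn1, F13a1, Hp, Mgst1 and Thbs1. Without Con replicate 1 the count was 3 of 7 (Ciita, H2-Aa and H2-Ab1), with the edgeR quasi-likelihood test it was also 3, and with the 3 limma fits 0, 0 and 1 (Ciita, 0.0452). A replicate block lost H2-Aa (0.0768) and Cd74 (0.173). Cd209a is also 1 of the 6 conventional dendritic cell markers, of which 2 fell in that contrast, Xcr1 and Cd209a. Those 6 had a median of -0.34 and summed to 41.10, 50.41 and 62.56 FPKM in Con and to 33.65, 40.04 and 50.16 in VanLip, in rising order, so the groups overlapped. B cells express MHC class II as well. Their 6 markers had a median of -0.47 for VanLip against Con with 0 called, among them Cd22 at -0.53 (adjusted p = 0.137) and Pax5 at -1.38 (0.184), both at an unadjusted p under 0.05. The B cell markers summed to 16.17, 16.38 and 17.67 FPKM in Con and to 12.61, 16.56 and 17.23 in VanLip, where replicate 1 was again the lowest of the 9 libraries. The part of dendritic cells and B cells in the fall of the MHC class II genes was not tested. For VanLip against Van 2 fell, Ciita (-0.71, 0.00675) and H2-Ab1 (-0.49, 0.0439), and neither call was kept without Van replicate 1, without VanLip replicate 1, with edgeR (0.0843 and 0.172) or with limma.

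Receptors and partners of the secreted members were listed as well. Of 10 receptors and cross-linkers for fibronectin, thrombospondin and versican, the integrin gene Itgav fell in Van against Con (-0.43, DESeq2 adjusted p = 0.0207) and rose in VanLip against Van (0.37, 0.0418). In that contrast Itga5, of the fibronectin receptor, fell (-0.42, 0.0216), as did the hyaluronan receptor gene Cd44 (-0.24, 0.0217). The median of the 10 was 0.02, -0.08 and -0.08 in the 3 contrasts, and each of these calls was lost without at least 4 of the 9 single libraries, with edgeR and with limma. Of 10 ligands and early signalling partners of the CSF1 receptor, Pik3r1, a regulatory subunit of PI3 kinase, rose in Van against Con (0.35, 0.000899) and fell in VanLip against Van (-0.46, 4.45e-07). Sos1 (-0.33, 0.000903) and the ubiquitin ligase gene Cbl (-0.25, 0.0199) fell in VanLip against Van, and both fell in VanLip against Con (Sos1 -0.25, 0.0344 and Cbl -0.27, 0.0118). The Sos1 call against Con was lost without any of 8 single libraries, and the Cbl calls without any of 2 against Con and of 5 against Van. With edgeR the Pik3r1 call for Van against Con (0.0529) and every Sos1 and Cbl call (0.0509 to 0.212) were lost. In all 3 limma fits the Pik3r1 call for Van against Con (0.0751 to 0.15), both Cbl calls (0.067 to 0.135) and the Sos1 call against Con (0.117 to 0.179) were lost. The Sos1 call against Van was lost in 1 limma fit (0.0574). That against Con was also lost with TMM library sizes (0.0786) and a replicate block (0.14). The Csf1r transcript itself stayed within the narrow intervals given above.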

How the data were processed

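Libraries were polyA-selected and stranded. Per the labels and the methods of the study, the authors aligned paired reads to GRCm38 with HISAT2 2.2.1 and deposited FPKM values per gene from StringTie 2.1.3. A second table deposited by the authors holds expected counts, made from the StringTie output with tximport, which are not whole numbers and not normalized. These were rounded to integers and analysed in R 4.3.3 by the Wald test of DESeq2 1.42.0, the test of the study, and its likelihood-ratio test, with all 9 libraries in 1 fit, group as the only term, and Benjamini-Hochberg adjustment over all genes. P-values are two-sided. Coordinates and transcripts are those of GENCODE M21, which held 99.0% of the detected genes. Normalized counts are counts over DESeq2 size factors. Fragments numbered 16151385 to 23018927 per library in Con and Van and 42625868 to 46180176 in VanLip.

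Genes named are the 10 members, listed genes that were called, the most abundant genes of a list, and for Ly6c2, Chil3, Fn1 and Thbs1 the 3 genes most correlated with each, of which 1 is not reported here. Alternatives were the quasi-likelihood test of edgeR 4.0.16, TMM library sizes, a filter of 10 counts in 3 libraries, a fit of only those groups, a replicate block, counts converted to fragments, protein-coding genes only, limma 3.58.1 on quantile-normalized log2 (FPKM + 1), log2 (FPKM + 0.1) or genes averaging an FPKM of 1 or more, and leave-one-out fits. The members and the gene lists were chosen with earlier results of these data known. The test functions were tested on simulated data.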

Additional observations from a re-analysis of the deposited data

How the results depend on the processing

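The 30 values of the 10 genes (3 contrasts each) gave 570 values under the alternatives, of which 528 kept direction and side of the threshold, 20 lost a call, 4 gained one and 18 changed sign. The 18 sign changes were all in values without a call: Csf1r for VanLip against Con (0.01 with TMM sizes, edgeR, limma and without Con replicate 1, and 0.00 without Con replicate 3), Mgst1 for VanLip against Con (-0.05 with limma, -0.14 without VanLip replicate 1, otherwise up to 0.24 without single libraries), Plac8 for Van against Con (0.03 with limma) and VanLip against Con (-0.01 without VanLip replicate 3, up to 0.11), Chil3 for VanLip against Van (-0.24 without VanLip replicate 1, up to 0.88), F13a1 for Van against Con (-0.12 without Van replicate 3, up to 0.45) and Thbs1 for Van against Con (-0.05 without Con replicate 3, up to 0.25). The cause was not tested.

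The count of members called for Van against Con was 0 with each limma fit (2 at an unadjusted p under 0.05, against 11.1% to 16.3% of all genes) and 0 to 1 without single libraries. For VanLip against Con it was 0 with edgeR (3 unadjusted, against 13.1% of all genes) and limma (2, against 14.0% to 20.2%), and 1 to 2 without single libraries, Vcan being added without VanLip replicate 3 (1.35, adjusted p = 0.026). For VanLip against Van it was 0 with edgeR (3 unadjusted, against 15.4% of all genes), each limma fit (1 to 2, against 16.2% to 24.4%) and only those groups (2, against 19.0%), and 0 to 2 without single libraries: Hp replaced Ly6c2 without VanLip replicate 3 (0.52, adjusted p = 0.0128). For any difference it was 1 with edgeR (Vcan), 0 with limma, and 1 to 4 without single libraries, the 4 without VanLip replicate 1.

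Over all genes, Van against Con gave 803 calls, 189 with edgeR, and 17, 92 and 90 with limma (pseudocount 0.1, pseudocount 1, mean FPKM of at least 1), and 425 to 913 without single libraries. VanLip against Con gave 1104, then 289, 168, 237 and 339 in the same order, 649 with protein-coding genes only, and 606 to 1276. VanLip against Van gave 1777, then 727, 516, 688 and 829, and 1142 to 1666. Any difference gave 2228, then 733, 330, 572 and 724, and 1503 to 2232. The split of higher and lower calls was 494 and 610 for VanLip against Con, and 657 and 500 with TMM sizes. For Van against Con it was 421 and 382, and 70 and 22 with limma at pseudocount 1. No scaling moved the median of all genes by over 0.1.

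Same-numbered libraries of different groups deviated together little (correlations -0.06 to 0.12 over 9 pairs), so the numbers are not taken to pair the mice. With a replicate block, Vcan (1.60), Ly6c2 (0.40) and Hp (0.63) kept their calls, the 3 contrasts still had 1 call each, and 2 members were called for any difference, without Vcan. Over all genes the block gave 932 calls for Van against Con. Of the 56 calls of listed genes, 32 were lost without at least 1 single library and 24 were kept. With edgeR 21 of the 56 were kept and with the block 42, Ccr2 for Van against Con being among those lost. On depth, the lowest normalized count of any of the 10 genes was 2574 (Vcan, Con replicate 3).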
